A study of Mus musculus with 8 samples.

Results

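Regulatory T cells are CD4 T cells that hold other immune cells in check, and the 10 genes described here are used to recognise them: Foxp3, Il2ra, Ikzf2, Ctla4, Tnfrsf18, Tnfrsf4, Nrp1, Gpr83, Itgae and Ebi3. Every probe set whose array annotation gave one of these symbols as its only gene was taken. On this array, short probes for the same transcript are combined into 1 value, that of a probe set. This gave 13 of the 22626 tested probe sets, for 10 of 12393 measured genes. Of these genes, 8 had 1 probe set, Il2ra had 2 and Nrp1 had 3.

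The RNA came from CD4 T cells that had been sorted by flow cytometry out of the spleens of female mice 8 to 12 weeks old. One genotype was a knockout of Ahr, the gene of the aryl hydrocarbon receptor, backcrossed to C57BL/6 (KO), and the other was wild type C57BL/6 (WT). Each mouse had been injected intraperitoneally, with corn oil as carrier, either with TCDD at 10 µg/kg or with the DMSO solvent alone, 24 h before it was killed. The 4 groups were KO TCDD, KO DMSO, WT TCDD and WT DMSO, with 2 Affymetrix MOE430A arrays each. One array carried RNA pooled from 4 animals, so no value belongs to a single mouse. The series' design text describes biological duplicates. All CD4 cells of the sort were measured together and regulatory T cells were not separated from them, so fewer regulatory cells and less RNA per cell cannot be told apart in any value below.

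Foxp3 is the transcription factor that sets up and maintains the regulatory lineage. Cells that carry it take up interleukin 2 through the receptor chain encoded by Il2ra, strip the costimulatory ligands CD80 and CD86 from antigen-presenting cells through Ctla4, and can release inhibitory cytokines, 1 of which contains the Ebi3 chain. Several of these genes are not exclusive to the lineage: Il2ra, Ctla4, Tnfrsf4 and Tnfrsf18 also come on in conventional T cells after activation, and Ebi3 is made by dendritic cells and macrophages. The aryl hydrocarbon receptor is a ligand-activated transcription factor, TCDD is its prototypical ligand, and work in mice has linked this receptor to regulatory T cells.

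Some facts on the arrays bear on all that follows. For the WT TCDD replicate 1 array, the description written in prose speaks of knockout mice, whereas the title, the source and the strain give wild type, so it was treated as WT. On the probe set 1452160_at of Tiparp, an inducible target of the receptor, the 4 KO arrays read 6.34 to 6.44 and the 4 WT arrays, this one included, 7.35 to 7.73 (log2). A second Tiparp probe set, 1452161_at, was separate too, at 6.17 to 6.56 on the KO arrays and 6.72 to 6.85 on the WT arrays. The brightest, 1426721_s_at, overlapped, at 8.53 to 9.13 on the KO arrays and 8.43 to 9.63 on the WT arrays (difference -0.19; limma, BH adjusted p = 0.767). Both WT arrays numbered 2 stood apart on the first principal component, at 40.4 and 49.2 where the other 6 arrays lay between -36.2 and 9.10. CD4 T cell identity was present in both genotypes: Cd4 averaged 8.16 ± 0.09 in KO cells against 8.37 ± 0.28 in WT cells and Cd3e averaged 9.36 ± 0.17 in KO cells against 9.53 ± 0.09 in WT cells (SD, n = 4 each), while the CD8 T cell markers Cd8a and Cd8b1 averaged 5.74 to 5.78 on the KO arrays and 5.74 to 5.87 on the WT arrays. Ahr itself does not check the genotype here, because the position of its 2 probe sets relative to the deletion was not given in the sources used here, and 1 of them averaged 6.74 ± 0.26 in KO cells, against 6.21 ± 0.10 in WT cells (SD, n = 4 each).

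Promoter sequences were available in the RefSeq table (assembly GRCm38.p6) for 8 of the 10 genes, as 9 windows of 300 bases that run from 250 before to 50 after an annotated start. Ikzf2 and Itgae are named only. The windows of Foxp3, of the neighbouring genes Tnfrsf18 and Tnfrsf4, and of Ebi3 are shown because the comparison of genotypes turns on these genes. They were searched on both strands for the core letters of the element to which the aryl hydrocarbon receptor binds (GCGTG), for the STAT motif TTCNNNGAA used by the interleukin 2 pathway, and for the forkhead motif GTAAACA. Capitals mark every match, and no match overlaps another.
Foxp3, first start, chrX:7579426-7579725, plus strand: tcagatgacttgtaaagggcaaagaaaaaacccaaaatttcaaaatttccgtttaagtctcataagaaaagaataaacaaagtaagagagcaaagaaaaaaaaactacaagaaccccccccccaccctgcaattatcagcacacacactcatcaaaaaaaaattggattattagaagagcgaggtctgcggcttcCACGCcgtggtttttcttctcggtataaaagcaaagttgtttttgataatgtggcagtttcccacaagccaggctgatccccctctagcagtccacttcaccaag
Foxp3, second start, chrX:7580233-7580532, plus strand: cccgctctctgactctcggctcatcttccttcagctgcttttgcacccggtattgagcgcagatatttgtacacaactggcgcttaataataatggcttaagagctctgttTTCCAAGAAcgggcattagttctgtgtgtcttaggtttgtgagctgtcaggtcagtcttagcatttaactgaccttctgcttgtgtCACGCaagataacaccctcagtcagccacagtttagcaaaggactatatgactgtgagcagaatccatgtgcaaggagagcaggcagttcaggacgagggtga
Tnfrsf18, chr4:156026072-156026371, plus strand: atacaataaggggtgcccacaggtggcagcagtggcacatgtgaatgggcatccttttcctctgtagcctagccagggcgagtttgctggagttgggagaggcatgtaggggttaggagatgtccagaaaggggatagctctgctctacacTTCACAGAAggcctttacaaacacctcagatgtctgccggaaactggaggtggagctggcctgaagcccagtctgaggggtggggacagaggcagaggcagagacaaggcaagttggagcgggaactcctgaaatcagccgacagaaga
Tnfrsf4, chr4:156013445-156013744, plus strand: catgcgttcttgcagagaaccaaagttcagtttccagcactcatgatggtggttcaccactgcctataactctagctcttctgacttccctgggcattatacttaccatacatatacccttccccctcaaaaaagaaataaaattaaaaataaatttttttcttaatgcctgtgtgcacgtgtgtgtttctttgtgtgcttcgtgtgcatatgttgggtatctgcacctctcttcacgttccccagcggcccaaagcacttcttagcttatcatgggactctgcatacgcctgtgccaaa
Ebi3, chr17:55952373-55952672, plus strand: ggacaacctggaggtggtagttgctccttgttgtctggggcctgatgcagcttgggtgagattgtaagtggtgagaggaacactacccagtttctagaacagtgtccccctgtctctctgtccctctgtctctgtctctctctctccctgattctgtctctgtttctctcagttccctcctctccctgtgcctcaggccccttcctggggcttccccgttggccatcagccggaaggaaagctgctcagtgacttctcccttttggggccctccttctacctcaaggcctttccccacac

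Both Foxp3 windows hold the receptor core once, on the minus strand. The windows of Nrp1 (minus strand) and Gpr83 (plus strand), not shown, hold it too, which makes 4 of 9 windows where 32.4% of 32851 promoters in the table have it. The STAT motif occurs in 2 of 9 windows, those of Tnfrsf18 and of the second Foxp3 start, against 8.3% of all promoters. The exact forkhead string GTAAACA occurs in 0 of 9, against 3.65% of all, and other forms of the forkhead motif were not searched. The windows of Tnfrsf4 and Ebi3 hold none of these letter strings. These matches describe letters in a short window and say nothing about binding.

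The comparison of KO with WT asks whether CD4 T cells of mice without the receptor carry a different amount of regulatory T cell transcripts. Ebi3 rose in KO, the costimulatory receptor genes Tnfrsf18 and Tnfrsf4 read higher in KO without passing the test, and Foxp3 itself read 6.44 ± 0.14 in KO cells, against 6.40 ± 0.45 in WT cells (SD, n = 4 each). All values are log2 expression, and differences are KO minus WT with treatments pooled, as was done in the study per its design text. A probe set was called when limma's test over all 22626 probe sets gave a Benjamini-Hochberg (BH) adjusted p under 0.05. By that rule 1 of the 13 probe sets was called, higher in KO, where 2.79% of all probe sets were called, 1.59% higher and 1.2% lower. Of the 13 differences, 9 lay above 0 and 4 below, with a median of 0.10 against -0.01 over all probe sets, and their median absolute size was 0.12 against 0.13 over all. At an unadjusted p under 0.05 there were 3 of 13, where 20.5% of all probe sets were, and 1 of 13 had its 4 KO arrays all above its 4 WT arrays and 0 had them all below, where 5.67% and 6.67% of all probe sets did (12.3% in either direction). Without both WT arrays numbered 2, limma called 0 of 13 and 0.124% of all, 2 of 13 had an unadjusted p under 0.05 (14.2% of all), and the median was 0.02 against -0.03 over all.

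**Figure D1:**
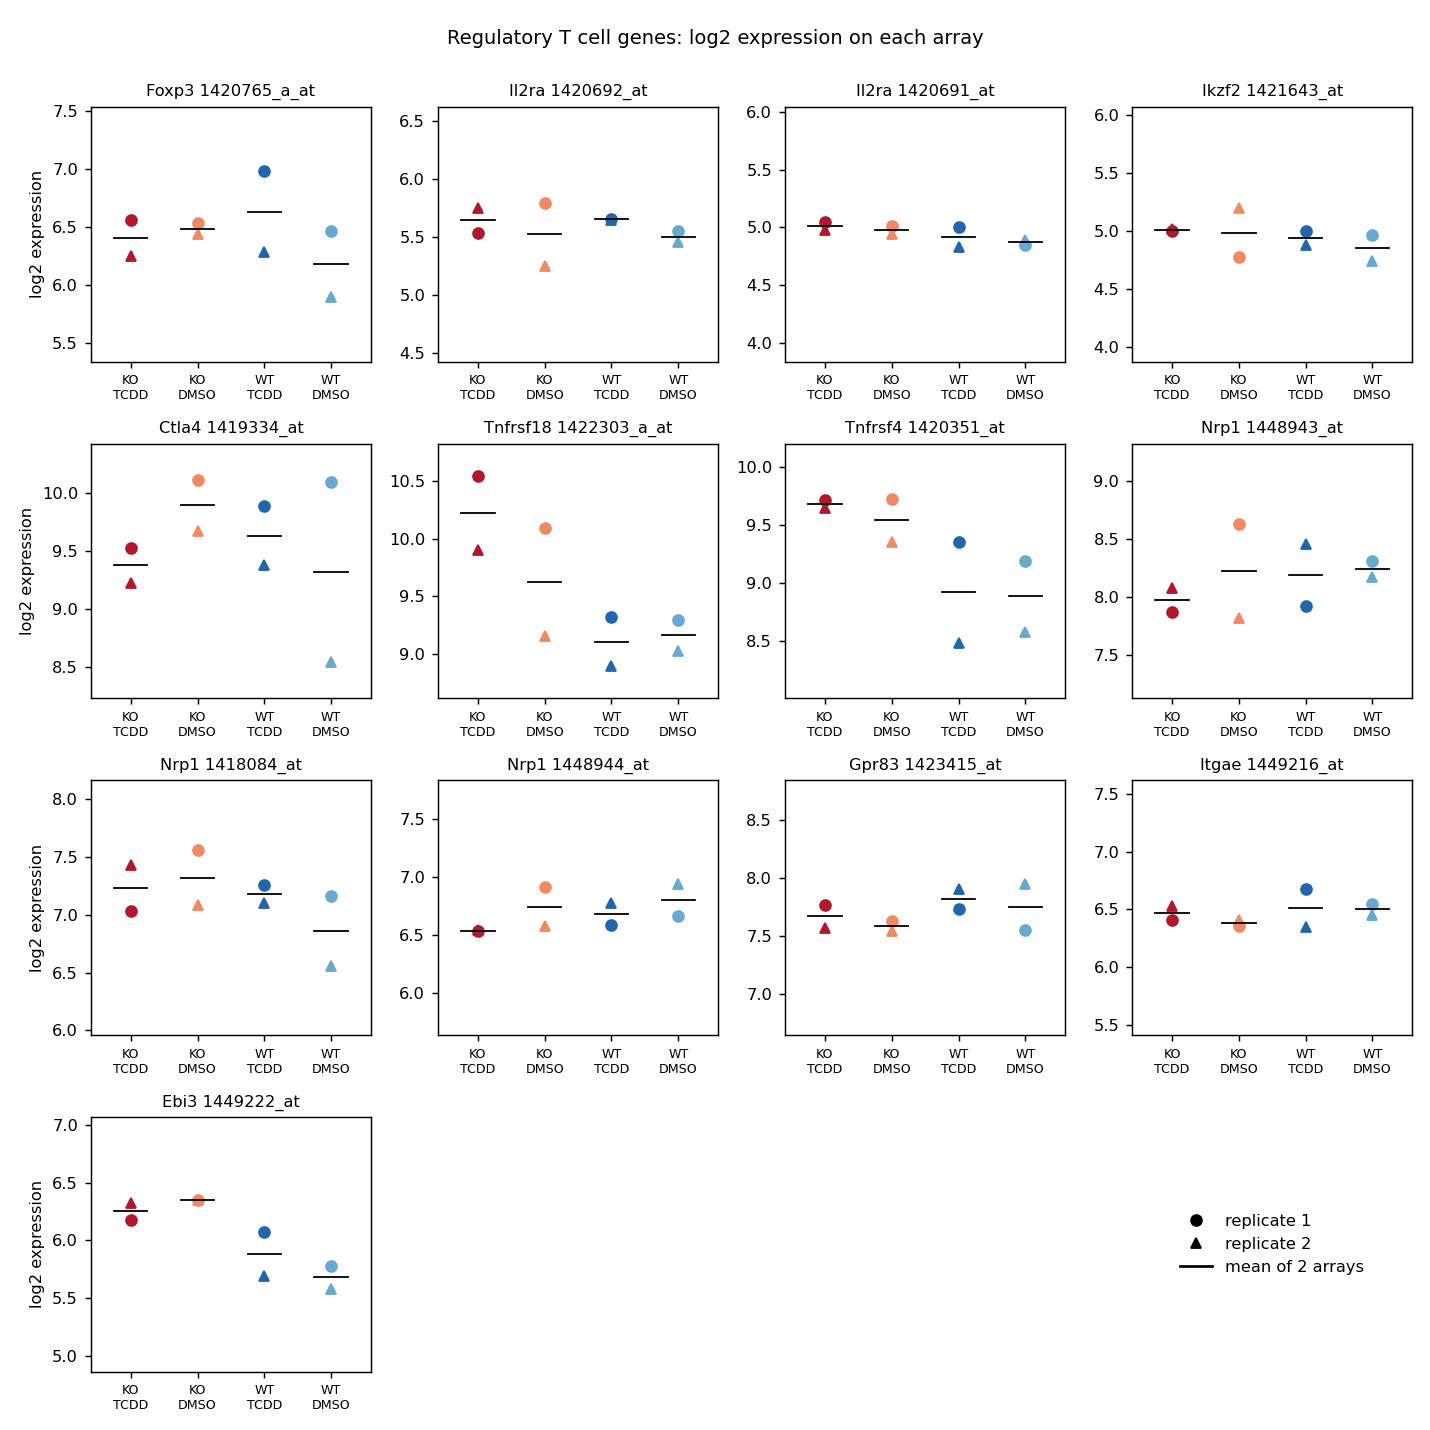
Log2 expression of the 13 probe sets on each of the 8 arrays, 1 panel per probe set, with KO TCDD, KO DMSO, WT TCDD and WT DMSO along the horizontal axis. Circles are replicate 1, triangles replicate 2 and bars the mean of 2 arrays. Each panel's vertical axis spans the same number of log2 units but starts at its own level. Ebi3 is the panel in which all KO arrays lie above all WT arrays.

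Foxp3 (probe set 1420765_a_at, chromosome X) gives the level of the lineage factor itself. It read 6.56 and 6.25 on the KO TCDD arrays and 6.53 and 6.44 on the KO DMSO arrays (replicates 1 and 2 in that order, here and below), against 6.98 and 6.28 on the WT TCDD arrays and 6.46 and 5.89 on the WT DMSO arrays. The 4 KO arrays sat close together inside the WT spread, whose extremes were WT TCDD replicate 1 at the top and WT DMSO replicate 2 at the bottom. The difference was 0.04 (SE 0.21, 95% interval -0.43 to 0.51; limma, BH adjusted p = 0.937), so changes from 0.744-fold to 1.43-fold lay within its interval. It turned to -0.27 (95% interval -0.67 to 0.12; adjusted p = 0.514) without both WT arrays numbered 2 and was 0.23 (adjusted p = 0.402) without WT TCDD replicate 1.

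The extremes of Foxp3 fell on the arrays at the extremes of a measure of RNA integrity. The log2 difference between the 3' and 5' actin control probe sets was 3.73, 3.82, 3.48 and 3.60 on the KO arrays, against 4.56 on WT TCDD replicate 1, 3.30 on WT TCDD replicate 2, 3.70 on WT DMSO replicate 1 and 2.90 on WT DMSO replicate 2. With that difference as a covariate, a fit added after the values were seen, Foxp3 differed by 0.02 (limma, BH adjusted p = 0.946). The actin measure had nearly equal genotype means, 3.66 for KO and 3.62 for WT. A covariate so balanced can hardly move a KO minus WT difference, whatever its tie to Foxp3. Whether RNA integrity shaped the Foxp3 values was not tested. By a fixed rule the 3 genes most like Foxp3 across the 8 arrays, out of 12383 searched, were Mtfp1 (Pearson r = 0.963), Zfp518b (0.956) and Sgcd (0.95). These correlations describe 8 arrays, each with its own RNA pool, that differ in the actin measure given above.

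Ikzf2 (1421643_at, chromosome 1) encodes Helios, a zinc finger factor of the Ikaros family found in most thymus-derived regulatory T cells. It read 5.0, 5.02, 4.77 and 5.20 on the KO arrays (TCDD first, then DMSO, here and below), against 5.0, 4.88, 4.96 and 4.74 on the WT arrays. The groups overlapped, and the highest and lowest KO values were the 2 replicates of the DMSO group. The difference was 0.10 (SE 0.11, 95% interval -0.14 to 0.34; limma, BH adjusted p = 0.648).

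Il2ra (chromosome 2) encodes CD25, the chain that gives the interleukin 2 receptor its high affinity. Probe set 1420692_at read 5.54, 5.75, 5.80 and 5.25 on the KO arrays, against 5.66, 5.65, 5.55 and 5.46 on the WT arrays. The WT values lay within the range of the KO values, and the genotypes had the same mean of 5.58, with SDs of 0.25 in KO and 0.09 in WT. The difference was 0.00 (SE 0.13, 95% interval -0.28 to 0.29; limma, BH adjusted p = 0.99). Probe set 1420691_at read 5.05, 4.98, 5.01 and 4.94 on the KO arrays, against 5.0, 4.83, 4.85 and 4.89 on the WT arrays. Here the KO values clustered at the top and 1 WT array, WT TCDD replicate 1, reached into them. The difference was 0.10 (SE 0.07, 95% interval -0.06 to 0.26; limma, BH adjusted p = 0.458; two-sided exact permutation p = 0.0857). Both Il2ra probe sets, Ikzf2 and Ebi3 had means under 6.13, the median over all probe sets, a range in which background signal compresses differences on such arrays.

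The genes of the inhibitory and costimulatory receptors included the 2 largest differences of the 13 probe sets. Ctla4 (1419334_at, chromosome 1) encodes the inhibitory receptor that competes with CD28 for CD80 and CD86. It read 9.53, 9.23, 10.12 and 9.68 on the KO arrays, against 9.89, 9.38, 10.10 and 8.54 on the WT arrays. A single array, WT DMSO replicate 2, lay well under all the others, which otherwise shared 1 range. The difference was 0.16 (SE 0.33, 95% interval -0.60 to 0.92; limma, BH adjusted p = 0.836), and it turned to -0.15 (adjusted p = 0.823) without WT DMSO replicate 2 and to -0.36 (95% interval -0.90 to 0.19; adjusted p = 0.546) without both WT arrays numbered 2.

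Tnfrsf18 (1422303_a_at, chromosome 4) encodes GITR, a costimulatory member of the tumour necrosis factor receptor family that regulatory T cells carry at rest. It read 10.54 and 9.90 on the KO TCDD arrays and 10.09 and 9.16 on the KO DMSO arrays, against 9.32 and 8.90 on the WT TCDD arrays and 9.30 and 9.03 on the WT DMSO arrays. Of the KO arrays, 3 lay above every WT array, and KO DMSO replicate 2 lay among the WT arrays. The mean was 9.92 ± 0.57 in KO cells, against 9.14 ± 0.21 in WT cells (SD, n = 4 each), a difference of 0.78 (SE 0.26), which is 1.72-fold with a 95% interval of 1.14 to 2.6. It did not pass over all probe sets (limma, unadjusted p = 0.0155, BH adjusted p = 0.138; two-sided exact permutation p = 0.0857, higher in 3 of 4 KO arrays). Without KO DMSO replicate 2, the lowest KO array, the difference was 1.04 and was called (limma, BH adjusted p = 0.0399). Leaving out any other single array gave a difference of 0.58 to 0.85 and no call (adjusted p of 0.14 to 0.276). Without both WT arrays numbered 2 the difference was 0.61 (adjusted p = 0.475).

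Tnfrsf4 (1420351_at, chromosome 4) encodes OX40, a related costimulatory receptor that is also induced on activated T cells. It read 9.72, 9.65, 9.73 and 9.36 on the KO arrays, against 9.36, 8.48, 9.19 and 8.58 on the WT arrays. The groups touched at 9.36, where KO DMSO replicate 2 met WT TCDD replicate 1, and the WT arrays numbered 1 averaged 9.27 while those numbered 2 averaged 8.53. The mean was 9.62 ± 0.17 in KO cells, against 8.90 ± 0.44 in WT cells (SD, n = 4 each), a difference of 0.71 (SE 0.20), which is 1.64-fold with a 95% interval of 1.19 to 2.26. It did not pass (limma, unadjusted p = 0.00737, BH adjusted p = 0.0982; two-sided exact permutation p = 0.0571). The difference was 0.86 (limma, BH adjusted p = 0.0517) without WT TCDD replicate 1, the highest WT array. Leaving out any other single array gave 0.57 to 0.81 (adjusted p of 0.102 to 0.223). Without both WT arrays numbered 2 the difference was 0.34 (adjusted p = 0.319).

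Out of 12383 genes searched by the same rule, those most like Tnfrsf18 over the 8 arrays were Blmh (Pearson r = 0.981), C1qbp (0.981) and Ndufv1 (0.98). None of the 3 was called between genotypes (limma, BH adjusted p = 0.126 to 0.209).

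Transcript levels of the surface proteins used to mark subsets of regulatory T cells overlapped between the genotypes on each probe set. Nrp1 (chromosome 8) encodes neuropilin-1, a coreceptor for semaphorins and for vascular endothelial growth factor that in mice marks regulatory T cells made in the thymus. Probe set 1448943_at read 7.87, 8.08, 8.63 and 7.82 on the KO arrays, against 7.92, 8.46, 8.31 and 8.17 on the WT arrays. Probe set 1418084_at read 7.03, 7.43, 7.56 and 7.08 on the KO arrays, against 7.26, 7.10, 7.16 and 6.56 on the WT arrays. The genotypes overlapped on both, with KO DMSO replicate 1 the highest array on each. The third, 1448944_at, read 6.53, 6.54, 6.91 and 6.58 on the KO arrays, against 6.59, 6.78, 6.66 and 6.94 on the WT arrays. The differences of the 3 were -0.12 (95% interval -0.55 to 0.32), 0.26 (-0.15 to 0.66) and -0.10 (-0.36 to 0.16), so the probe sets of 1 gene did not share a sign (limma, BH adjusted p = 0.792, 0.48 and 0.678).

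Gpr83 (1423415_at, chromosome 9) encodes a G protein-coupled receptor that is enriched in regulatory T cells of mice. It read 7.77, 7.57, 7.63 and 7.54 on the KO arrays, against 7.73, 7.91, 7.55 and 7.95 on the WT arrays. The 2 highest arrays were the WT arrays numbered 2, and the others shared 1 range. The difference was -0.16 (SE 0.11, 95% interval -0.40 to 0.08; limma, BH adjusted p = 0.453), and -0.01 without these 2 arrays.

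Itgae (1449216_at, chromosome 11) encodes CD103, the integrin chain that pairs with the Itgb7 chain and binds E-cadherin on epithelium. It read 6.41, 6.53, 6.36 and 6.41 on the KO arrays, against 6.68, 6.35, 6.55 and 6.45 on the WT arrays. This was among the tightest probe sets, with SDs of 0.07 in KO and 0.14 in WT, and the groups overlapped. The difference was -0.08 (SE 0.09, 95% interval -0.28 to 0.12; limma, BH adjusted p = 0.673).

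Ebi3 (1449222_at, chromosome 17) encodes a secreted chain that pairs with the Il12a product to form the cytokine IL-35 and with the Il27 product to form IL-27. It read 6.18 and 6.32 on the KO TCDD arrays and 6.35 and 6.35 on the KO DMSO arrays, against 6.07 and 5.69 on the WT TCDD arrays and 5.78 and 5.58 on the WT DMSO arrays. Every KO array lay above every WT array, with KO TCDD replicate 1 and WT TCDD replicate 1 the closest pair across the genotypes. The mean was 6.30 ± 0.08 in KO cells, against 5.78 ± 0.21 in WT cells (SD, n = 4 each), a difference of 0.52 (SE 0.11), which is 1.43-fold with a 95% interval of 1.2 to 1.71. Ebi3 was the 1 called member (limma, BH adjusted p = 0.0478; two-sided exact permutation p = 0.0286, the smallest that 70 arrangements allow; higher in 4 of 4 KO arrays).

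The call on Ebi3 stood just inside the threshold. It was lost on leaving out any 1 array other than WT TCDD replicate 1, with a BH adjusted p of 0.0785 to 0.136 (limma) and a difference of 0.45 to 0.56. Without WT TCDD replicate 1 the difference was 0.62 (adjusted p = 0.027), and without both WT arrays numbered 2 it was 0.38 (95% interval 0.10 to 0.65; adjusted p = 0.226). By group the mean was 6.25 ± 0.10 in KO TCDD, 6.35 ± 0.00 in KO DMSO, 5.88 ± 0.27 in WT TCDD and 5.68 ± 0.14 in WT DMSO (SD, n = 2 each). The order was therefore KO DMSO, KO TCDD, WT TCDD, WT DMSO, the 2 WT groups overlapped, and the test of treatment called neither genotype's pair of groups apart. Within each treatment the difference was 0.37 among TCDD arrays and 0.67 among DMSO arrays (limma, BH adjusted p = 0.483 and 0.685). Among 12383 genes, those most like Ebi3 across the 8 arrays were Tmem131l (Pearson r = 0.982), Plat (0.975) and Mapkbp1 (0.973). Of these, Tmem131l was called higher in KO, by 0.74 (limma, BH adjusted p = 0.0261). It was picked for following Ebi3 on these same arrays, so its call is not independent of that of Ebi3.

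**Figure D2:**
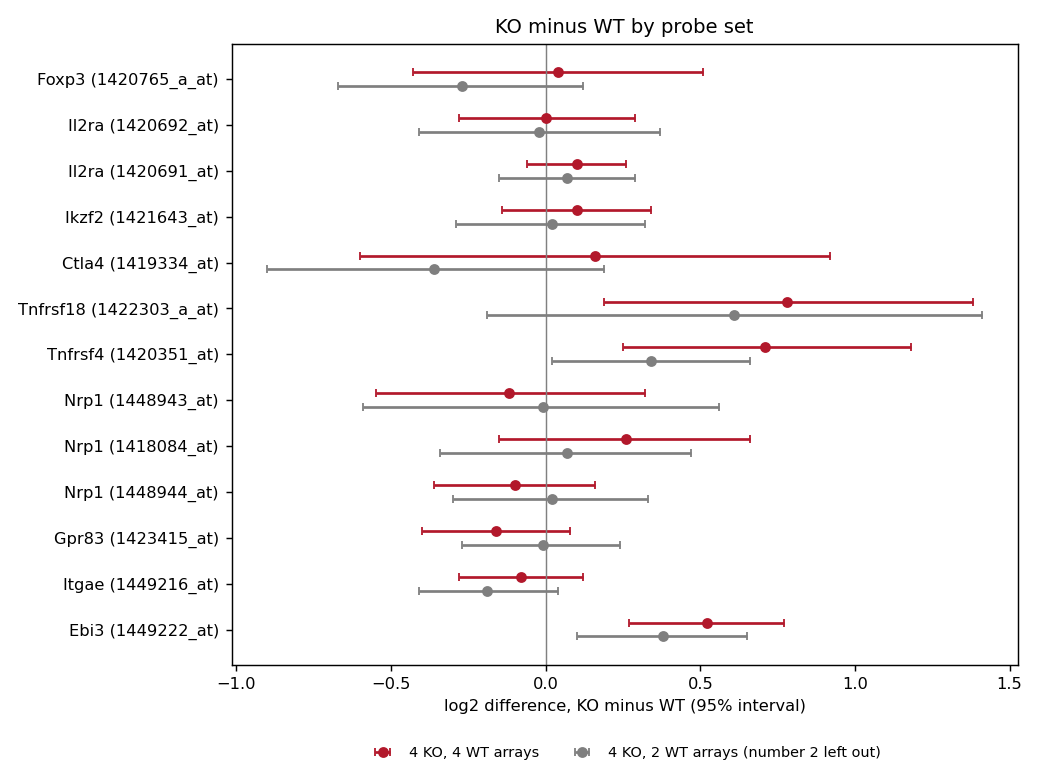
KO minus WT log2 difference of each of the 13 probe sets with its 95% interval from limma. Red points use 4 KO and 4 WT arrays, grey points leave out the WT arrays numbered 2. The intervals of Ebi3, Tnfrsf4 and Tnfrsf18 lie above 0 with all arrays, and with the WT arrays numbered 2 left out that of Tnfrsf18 crosses 0.

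Markers of other blood cells moved between the genotypes alongside these genes. Of 8 measured plasmacytoid dendritic cell markers 7 were called higher in KO, with a mean level per array of 8.36 to 8.82 on the KO arrays and 6.66 to 7.25 on the WT arrays. Of 9 conventional dendritic cell markers 3 were called higher (7.49 to 8.07 on the KO arrays, 6.59 to 7.12 on the WT arrays), and of 11 macrophage and monocyte markers 6 (7.30 to 7.83 on the KO arrays, 6.47 to 6.65 on the WT arrays). In each of these lists the KO arrays all lay above the WT arrays, as they did for Ebi3, a gene those cells also use. Of 6 NK cell markers Nkg7 was called higher, of 9 T cell markers Cd6, and of 7 B cell, 2 CD8 T cell and 2 red cell markers 0 were called. No marker was called lower in KO (limma, BH adjusted p under 0.05 over all probe sets). Among all genes by the brightest probe set, 1.9% were called higher and 1.33% lower. Without both WT arrays numbered 2, only Irf8, Spib and Cd68 of the markers were still called (limma, BH adjusted p = 0.0423, 0.0456 and 0.0457). The median differences of the plasmacytoid, conventional and macrophage lists were then 1.44, 0.36 and 0.89, against 1.68, 0.60 and 0.75 with all arrays. No summed level was at 0, since these log2 values carry a background. The part of these cell types in the differences of Ebi3, Tnfrsf4 and Tnfrsf18 was not tested.

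**Figure D3:**
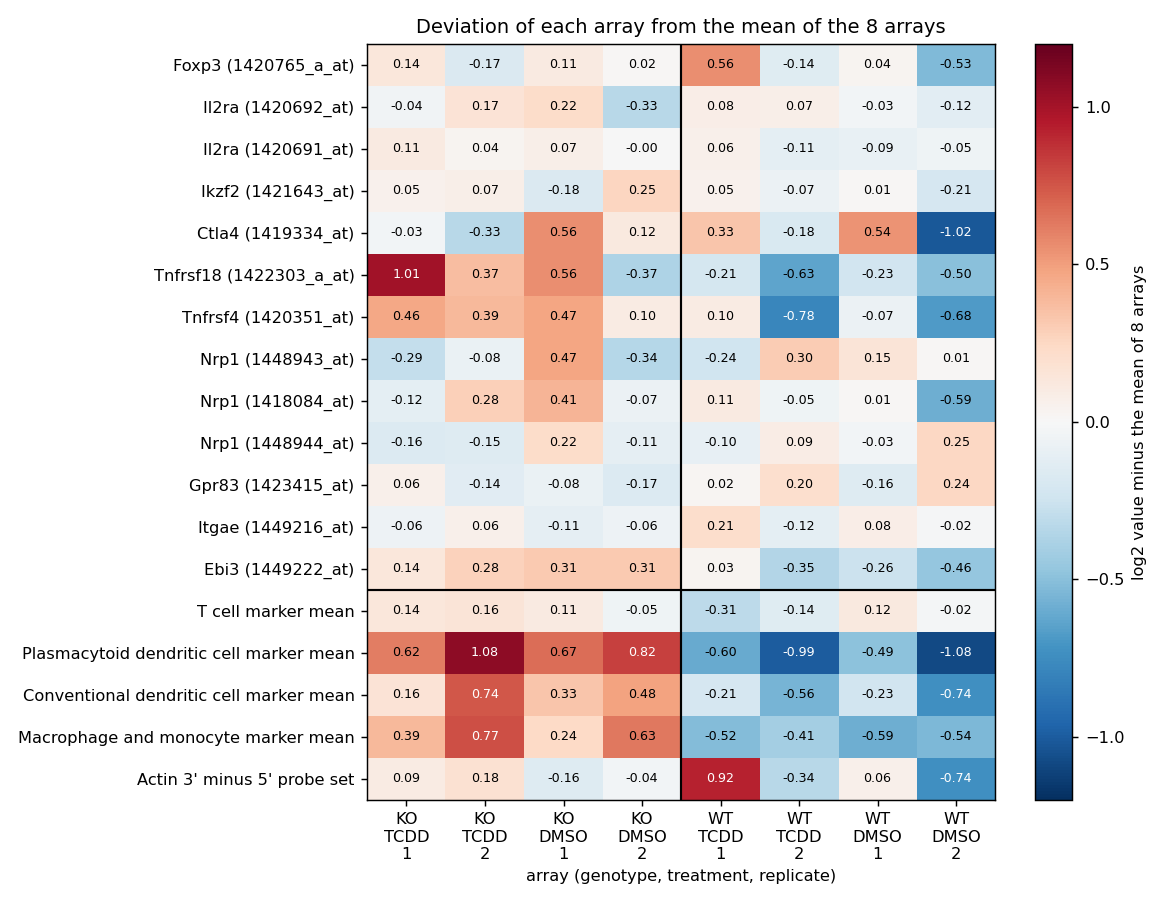
Deviation of each array (columns, with the 4 KO arrays left of the 4 WT arrays) from the mean of the 8 arrays, in log2 units, for the 13 probe sets, for the mean level of 4 marker lists and for the actin 3' minus 5' difference. Red cells are above the mean and blue cells below it. Ebi3 and the dendritic cell and macrophage markers split by genotype, while Foxp3 and the actin difference are highest on WT TCDD replicate 1 and lowest on WT DMSO replicate 2.

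To set each gene against the lineage factor, its log2 difference from Foxp3 was taken on every array and compared between genotypes. This comparison was chosen after the values were seen, and only its change between genotypes can be read, since different probe sets have different sensitivities. Tnfrsf4 stood 3.16, 3.40, 3.20 and 2.92 above Foxp3 on the KO arrays, against 2.38, 2.20, 2.73 and 2.69 on the WT arrays. Measured this way its groups no longer touched. The shift was 0.67 (3.17 ± 0.20 in KO, 2.50 ± 0.25 in WT; SD, n = 4 each; two-sided exact permutation p = 0.0286). Tnfrsf18 shifted by 0.74 and Ebi3 by 0.48, with overlapping groups (two-sided exact permutation p = 0.0857 and 0.0571). The other 6 genes, each by its brightest probe set, shifted by -0.20 to 0.12. Over the 9 comparisons the BH adjusted exact permutation p was 0.257 for Tnfrsf4, Tnfrsf18 and Ebi3 and 0.845 or more for the rest. Before adjustment Tnfrsf4 alone had reached the smallest p that 70 arrangements allow. Without both WT arrays numbered 2 the 3 shifts were 0.62, 0.89 and 0.65 in the order Tnfrsf4, Tnfrsf18, Ebi3 (exact permutation p = 0.0667, 0.2 and 0.0667). The other 6 genes then shifted by -0.08 to 0.29. Among them Gpr83, at 0.26, had the same exact permutation p of 0.0667, and the rest had 0.267 or more. With 4 and 2 arrays 0.0667 is the smallest two-sided p that the 15 arrangements allow. Foxp3 itself, which is subtracted, differed by -0.27 in that subset. The own differences of Tnfrsf4, Tnfrsf18 and Ebi3 there were 0.34, 0.61 and 0.38, smaller than with all arrays.

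TCDD was given to ask what acute activation of the receptor does to these transcripts within 24 h, and KO mice serve as the control for effects that do not pass through the receptor. Limma called 0 of 13 probe sets after TCDD in WT, 0 of 13 in KO and 0 of 13 for the difference between those effects, and of these 39 tests 0 had an unadjusted p under 0.05. Over all probe sets 0% were called in each comparison, and 2.79%, 1.69% and 2.78% had an unadjusted p under 0.05 in the same order. The BH adjusted p was 0.997, 1 and 0.998 for each of the 13. The median effect over the 13 was 0.07 in WT, against 0.02 over all probe sets, with 10 above 0. In KO it was 0.02, against 0.03 over all, with 7 above 0.

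With 2 arrays a group the intervals were wide. Foxp3 averaged 6.40 ± 0.22 in KO TCDD and 6.48 ± 0.06 in KO DMSO, and 6.63 ± 0.49 in WT TCDD and 6.18 ± 0.40 in WT DMSO (SD, n = 2 each). Within WT the 2 replicates of a treatment lay further apart than the treatment means, so the effect of 0.45 (SE 0.28, 95% interval -0.22 to 1.13) was within the spread. In KO it was -0.08 (95% interval -0.76 to 0.60). Leaving out single arrays moved the WT effect between 0.11 and 0.81.

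Ctla4 averaged 9.38 ± 0.21 in KO TCDD and 9.90 ± 0.31 in KO DMSO, and 9.64 ± 0.36 in WT TCDD and 9.32 ± 1.1 in WT DMSO (SD, n = 2 each). Its effects pointed in opposite directions, -0.52 (95% interval -1.69 to 0.65) in KO and 0.32 (-0.86 to 1.49) in WT. Both intervals covered 0 and the difference between them, -0.83 (SE 0.69), did not pass (limma, BH adjusted p = 0.998).

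Tnfrsf18 averaged 10.22 ± 0.45 in KO TCDD and 9.62 ± 0.66 in KO DMSO, and 9.11 ± 0.30 in WT TCDD and 9.16 ± 0.19 in WT DMSO (SD, n = 2 each). The effect was 0.59 (SE 0.36, 95% interval -0.26 to 1.45) in KO, the largest of the 13 there, and -0.05 (-0.91 to 0.80) in WT. Tnfrsf4 moved by 0.14 (-0.65 to 0.93) in KO and 0.04 (-0.76 to 0.83) in WT, and Ebi3 by -0.10 (-0.48 to 0.28) in KO and 0.20 (-0.18 to 0.58) in WT. For the remaining probe sets, those of Il2ra, Ikzf2, Nrp1, Gpr83 and Itgae, the effects ran from -0.25 to 0.12 in KO and from -0.12 to 0.32 in WT. The lack of calls does not show that TCDD left these genes unmoved, as the intervals allow changes in either direction.

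**Figure D4:**
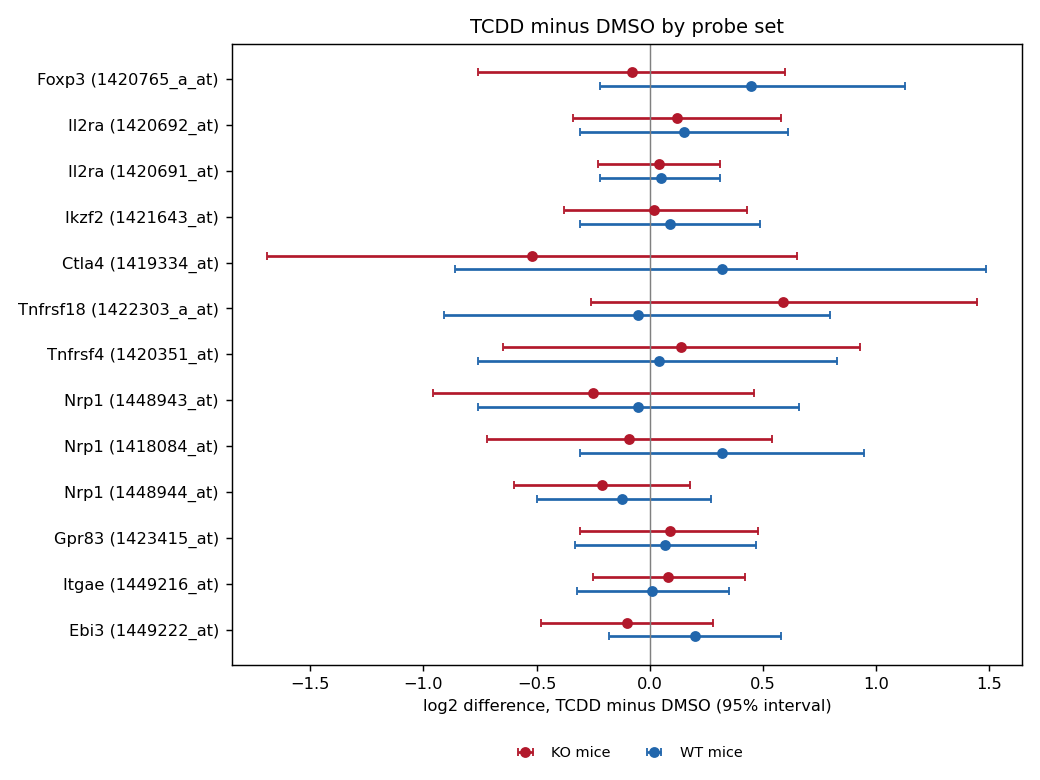
TCDD minus DMSO log2 difference of each of the 13 probe sets with its 95% interval from limma, in KO mice (red) and in WT mice (blue), 2 arrays per group. Every interval drawn includes 0.

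Genes that work with these 10 were read from 4 lists, each gene by its brightest probe set. Among such genes 3.24% of 12393 were called between KO and WT, 1.9% higher and 1.33% lower, and the median difference was 0. Of 32 further genes of the regulatory T cell signature 25 were measured, 1 was called higher and 0 lower, and their median was 0.12. The called gene was Klrg1, an inhibitory lectin-like receptor of terminally differentiated regulatory, effector and NK cells. It read 9.37, 9.80, 9.37 and 9.25 on the KO arrays, against 8.39, 8.32, 7.96 and 7.89 on the WT arrays. The groups lay far apart. Klrg1 rose by 1.31 (SE 0.16; limma, BH adjusted p = 0.00896), a call kept on leaving out each single array (adjusted p of 0.0179 to 0.0314). Without both WT arrays numbered 2 the difference was 1.27 (adjusted p = 0.0804).

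The interleukin 2 receptor and STAT5 pathway, which carries the signal of CD25 and sustains Foxp3, had 15 measured genes of 17, with 0 called higher and 0 lower and a median of 0.08. The signalling chain Il2rb read 0.34 higher in KO (SE 0.19; limma, BH adjusted p = 0.366) and the cytokine Il2 0.12 higher (SE 0.11; adjusted p = 0.586). These and the partner genes below that were not called are named because they pair with a member.

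Among partners and upstream regulators of Foxp3, 25 of 27 were measured, with 1 called higher and 3 lower and a median of -0.05. Foxo1, a forkhead factor that regulatory T cells need, read 8.51, 9.20, 9.52 and 9.21 on the KO arrays, against 10.38, 10.62, 9.94 and 10.42 on the WT arrays. All KO arrays lay below all WT arrays, and Foxo1 fell by 1.23 (SE 0.22; limma, BH adjusted p = 0.034). A second Foxo1 probe set, 1416981_at, was called too (-0.62; adjusted p = 0.0392), and its other 2 were not (-0.15 and -0.03). Usp7, a deubiquitinase that stabilises Foxp3 protein, read 9.33, 9.29, 9.62 and 9.11 on the KO arrays, against 10.61, 10.22, 10.0 and 10.39 on the WT arrays. It fell by 0.97 (SE 0.15; limma, BH adjusted p = 0.0221) with no overlap between the groups. Its other probe set, at -0.63, was not called (adjusted p = 0.0703).

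Satb1, a chromatin organiser that Foxp3 represses, read 10.56, 10.80, 11.04 and 10.55 on the KO arrays, against 11.35, 11.30, 11.31 and 11.59 on the WT arrays. It fell by 0.65 (SE 0.13; limma, BH adjusted p = 0.0392), and its other 2 probe sets, at -1.07 and -1.18, were not called (adjusted p = 0.144 and 0.0828). Hdac7, a histone deacetylase that binds Foxp3, read 8.54, 8.48, 8.58 and 8.42 on the KO arrays, against 8.07, 8.10, 8.29 and 7.98 on the WT arrays. It rose by 0.39 (SE 0.09; limma, BH adjusted p = 0.0492), while a second probe set, 1420812_at, differed by 0.11 with overlapping groups (adjusted p = 0.675). On the called probe set of both genes the groups were separate, and the gap between the nearest KO and WT arrays was smaller than the range within either group. Leaving out each of the 8 arrays in turn ended the call of Satb1 and of Hdac7 in 7 of 8 fits, of Foxo1 in 6 and of Usp7 in 4, with adjusted p up to 0.115, 0.138, 0.0999 and 0.0781 in that order. With 4 group means none of the 4 was called (adjusted p = 0.096, 0.119, 0.0582 and 0.0667).

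Of 21 ligands, partner chains and adaptors of the member proteins 17 were measured, with 0 called higher and 1 lower and a median of 0.08. The called gene was Il6st, which encodes gp130, a signalling chain shared by receptors of the IL-6 family and of IL-27 and IL-35. It read 7.57, 7.75, 8.16 and 7.30 on the KO arrays, against 8.23, 8.85, 8.72 and 8.82 on the WT arrays. KO DMSO replicate 1 and WT TCDD replicate 1 nearly met. Il6st fell by 0.96 (SE 0.20; limma, BH adjusted p = 0.0464), and its other probe sets, at -0.20 and -0.12, were not called. Dropping single arrays ended this call in 6 of 8 fits (adjusted p of 0.0792 to 0.132), as did median centring (0.0593) and 4 group means (0.107).

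The partner chains and ligands named next were not called. Il12a, the other chain of IL-35, differed by 0.01 (SE 0.12), Itgb7, the partner chain of CD103, by -0.13 (SE 0.09), and Cd28, which shares its ligands with Ctla4, by -0.36 (SE 0.22; limma, BH adjusted p = 0.98, 0.492 and 0.4). Tnfsf4, the ligand of OX40, differed by -0.08 (SE 0.07; adjusted p = 0.538). Without both WT arrays numbered 2, limma called 0 genes of the 4 lists.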

How the data were processed

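The authors deposited log2 expression values of 8 Affymetrix MOE430A arrays, made by RMA (which corrects background, normalises arrays to each other and summarises probes) with affy named as the package (per the submitters' processing notes), both with versions not given in the sources used here. TRIzol was used for RNA isolation and the Ambion MessageAmp kit for amplification, per the labels' protocols. The number of arrays limits the precision. Array medians of the deposited log2 values lay between 6.08 and 6.15, the correlation within a group was at least 0.967, and at most 2.85% of values were identical between any pair of arrays. The p-values measure the spread between these pools. Processing batches, not given in the sources used here, were not modelled.

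Of 22690 probe sets 64 controls were left out. In the platform annotation 20380 of the tested probe sets had 1 gene symbol, 691 several and 1555 none. All 10 members matched the RefSeq gene table (GRCm38.p6), which gave chromosomes and promoter windows. KO and WT were fitted as 2 group means over 8 arrays, and TCDD effects and their difference in a model of 4 group means, with limma 3.58.1 (lmFit, eBayes) in R 4.3.3 and Benjamini-Hochberg adjustment over 22626 probe sets. Single levels had two-sided exact permutation tests. Lists used the probe set with the highest mean per gene, and genes named from them were called ones, up to 6 per list with the lowest p. The fits were tested on simulated data. The members and lists were chosen with earlier results of these data known. Alternatives were a replicate block, other scalings, filters, models, thresholds and array subsets.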

Additional observations from a re-analysis of the deposited data

Results flagged for a closer look

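Of 38 groups of 4 arrays that were checked, 1 held an array far from the rest by Dixon's test, which flags about 1 in 20 such groups by chance. On the Nrp1 probe set 1448944_at, KO DMSO replicate 1 read 6.91 (log2) while the other 3 KO arrays read 6.53 to 6.58. The same array was also the highest of the 8 on the other 2 Nrp1 probe sets, at 8.63 and 7.56.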

How the results depend on the processing

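Counts of probe sets called between KO and WT moved with most settings. Of all probe sets 631 were called (360 higher and 271 lower in KO), against 985 after another quantile normalization, 1604 with array weights, 161 with 4 group means, 28 without both WT arrays numbered 2, 0 from the DMSO arrays alone (1545 at an unadjusted p under 0.05), 0 from the TCDD arrays alone (2832), 1834 with the actin covariate and 1741 at an adjusted p under 0.1. Leaving out 1 array gave 109 to 667. The split was 375 higher and 184 lower after median centring, 424 higher and 460 lower when dim probe sets were dropped. Of the 13 member probe sets 1 was called, against 2 with the replicate block (Tnfrsf4 and Ebi3), 3 with array weights (Tnfrsf18, Tnfrsf4 and Ebi3), 2 with the actin covariate and 2 at the looser threshold (Tnfrsf4 and Ebi3 each time). It was 0 with dim probe sets left out, where Ebi3 was not tested, 0 with 4 group means (Ebi3 adjusted p = 0.0967), 0 without both WT arrays numbered 2, 0 from either treatment alone (1 of 13 at an unadjusted p under 0.05 in each), and 0 to 1 on leaving out 1 array. Of the genes in the 4 lists 6 were called, against 10 after quantile normalization, 15 with array weights, 13 with the actin covariate, 15 at the looser threshold, 1 with 4 group means, 0 without both WT arrays numbered 2 or from either treatment alone, and 1 to 6 on leaving out 1 array.

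Among 243 member values under alternatives 14 changed sign, none of them called. Ctla4 read -0.18 with array weights, -0.36 without both WT arrays numbered 2, -0.26 from the TCDD arrays alone and -0.15 to 0.37 on leaving out 1 array. Foxp3 read -0.27 without both WT arrays numbered 2, -0.23 from the TCDD arrays alone and -0.13 to 0.23 on leaving out 1 array. Il2ra 1420692_at read -0.02, -0.01 and -0.07 to 0.12 in the same settings, and Nrp1 1448944_at 0.02 without both WT arrays numbered 2. Relative to Foxp3, leaving out those arrays turned Il2ra, Nrp1 and Gpr83 to 0.26 each, Itgae to 0.09 and Ctla4 to -0.08. In these shifts the difference of Foxp3, -0.27 without those arrays, is subtracted. The genes themselves read -0.02, -0.01, -0.01, -0.19 and -0.36 there, in the same order. What moved the values of Foxp3 and the other members was not tested. TCDD effects and their difference between genotypes had 0 calls in all 15 alternatives each, and of 573 member values 58 moved past 1 SD.

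The labels do not say that a replicate number marks a shared batch. The deviations of same-numbered arrays correlated over 0.1 in 4 of 6 pairs of groups, with a range of -0.293 to 0.626, so pairing was not established. With the replicate block 801 probe sets were called. The block brought Tnfrsf4 past the threshold (adjusted p = 0.0375) and ended the call of Il6st (0.0531), while Tnfrsf18 stood at 0.0621 and Ebi3 at 0.049 (limma, BH). The actin covariate was chosen after seeing the data.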

Other observations

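Tnfrsf4 and Tnfrsf18 lie side by side on chromosome 4 in the RefSeq order of genes, so the 5 genes on either side were read as well, a choice made after the values of both were seen. Of these 10 neighbours 6 were measured. Sdf4, which encodes a calcium-binding protein of the Golgi and lies next to Tnfrsf4, read 9.14 ± 0.04 in KO cells, against 8.54 ± 0.25 in WT cells (SD, n = 4 each), a difference of 0.60 (SE 0.12) that was called (limma, BH adjusted p = 0.0416). Without both WT arrays numbered 2 it was 0.52 (adjusted p = 0.113), and a second Sdf4 probe set, 1448367_at, differed by 0.00 (adjusted p = 0.985). The other 5 (Ube2j2, C1qtnf12, B3galt6, 9430015G10Rik and Agrn) differed by -0.13 to 0.05 and were not called.

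Sema4a, a semaphorin from the list of ligands, partner chains and adaptors, was not called by its brightest probe set. That probe set differed by 0.30 between KO and WT (limma, BH adjusted p = 0.671). Its other probe set, 1448110_at, read 8.42 ± 0.16 in KO cells, against 7.86 ± 0.18 in WT cells (SD, n = 4 each) and was called, at 0.55 (adjusted p = 0.0476). Sema4a was picked out with its values known.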
